A study of Mus musculus with 6 samples.

Results

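The cells described here are the cycling epithelial cells of the control mouse uterus, which the authors numbered as cluster 4 of their clustering of control (CO) epithelial cells. Members were the cells carrying that cluster number in the deposited metadata and a column in the table of counts. There were 187 such cells, of 191 listed in cluster 4 and of 2583 clustered CO epithelial cells with counts (7.24%, exact 95% interval 6.27 to 8.31). The whole series held 48699 cells with counts. The 2396 CO cells of the other 14 clusters were used for comparison, and so was cluster 14, a gland cluster of 28 cells that also carried cycling transcripts.

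A dividing cell copies its DNA in S phase and separates the copies in mitosis (M), with the gap phases G1 and G2 between them. Cyclins and cyclin-dependent kinases (CDKs) drive these steps. E2F factors are known for inducing replication genes around the entry into S phase, and FOXM1 and MYBL2 with the MuvB complex for inducing mitotic genes in G2. In the uterus the luminal epithelium (LE) lines the cavity and the glandular epithelium (GE) secretes into it, and estrogen is a known mitogen of both.

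All animals were CD-1 mice. As newborns they were injected subcutaneously each day from day 1 to day 5, either with the vehicle corn oil (CO) or with diethylstilbestrol (DES), a synthetic estrogen, at 1 mg/kg/day, and uteri were taken at 12 months of age. The study's methods state that CO mice in estrus were chosen, since adult DES mice remain in that stage. Uterine horns of 2 CO mice were pooled, dissociated with trypsin and made into 1 single-cell library, and those of 4 DES mice into another. Visium spatial sections came from 2 CO and 2 DES mice. The study reports a substantial fold in the tissue of control sample B and limited identification of clusters in DES sample B. For most of its analyses it therefore used the other section of each group. Sample B is section 2 of each condition here, and both sections of a condition were used. A pathologist looked for uterine adenocarcinoma in the DES tissue before mice were selected, and the study describes its DES mice as bearing it. Exposure and cancer tissue cannot be told apart in these sections. Because the mice of each condition were pooled for the single-cell libraries, cells could not be traced to an animal. No test between cells, clusters or the 2 single-cell libraries was made, and tests were run on the Visium sections only. Levels are summed counts of unique molecular identifiers (UMIs) scaled to CPM, the counts per 1000000 UMIs of the group, with exact Poisson 95% intervals that cover counting error only. A gene is called higher or lower at a ratio of 2. The authors formed the clusters on the genes of these same cells, so contrasts of cluster 4 with other cells describe the cluster and test nothing.

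Cluster 4 carried the markers of its label. Top2a encodes the topoisomerase that untangles replicated DNA (GRCm38 chr11:98992943-99024189, minus strand), and its summed level was 224 CPM (213 to 235), against 15.2 CPM in the other clusters and 370 CPM in cluster 14. Mki67 encodes the proliferation antigen Ki-67 (chr7:135689784-135716361, minus strand), and stood at 78.3 CPM (72.1 to 84.9), against 5.41 CPM and 116 CPM. Epcam, an adhesion molecule of epithelial cells (chr17:87635979-87651129, plus strand), stood at 1247 CPM (1222 to 1273) in cluster 4 and was higher there than in any other of the 15 clusters, against 1018 CPM over the other clusters. The highest Top2a level outside clusters 4 and 14 was 65.1 CPM, in gland cluster 13, where no Mki67 UMI was found.

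The members were the most deeply sampled of the clustered cells. Their median was 36456 UMIs (2450 to 105164), the highest median of the 15 clusters, against 23053 in the other clusters together, and they held a median of 5849 genes against 4610. Mitochondrial genes took a median of 8.56% of UMIs against 10.0%. Scrublet, a doublet caller, marked 0 of the 187 cells, which allows up to 1.60%, while marking 5.55% of all 32387 CO cells. The share it marked among the 2583 clustered cells was 0.619%. The CO and DES libraries shared 180 barcodes, of which 2 belonged to cluster 4.

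**Figure D1:**
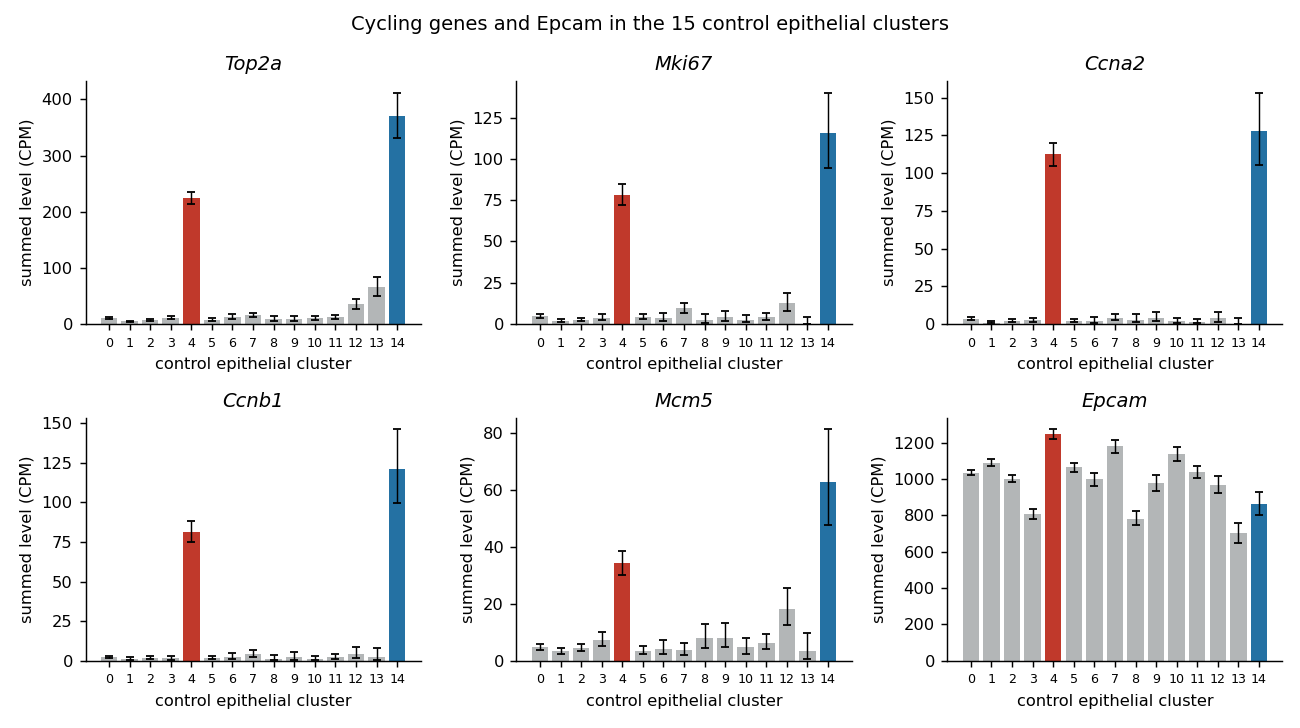
Summed level in CPM (bars, from 0) of Top2a, Mki67, Ccna2, Ccnb1, Mcm5 and Epcam in each of the 15 CO epithelial clusters, with exact Poisson 95% intervals as error bars; cluster 4 is red and cluster 14 blue. The 5 cycling genes stand out in clusters 4 and 14, while Epcam is measured in all clusters and is highest in cluster 4, at 1247 CPM.

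Single members varied widely. Top2a ranged from 0 to 48 UMIs per cell with a median of 6, and 49 of the 187 cells held none. Mki67 ranged from 0 to 15 UMIs with a median of 2, and 36 cells held none. Epcam ranged from 2 to 116 UMIs with a median of 48, and every cell held it. To set depths equal, each cell was thinned to 3000 UMIs, which left 185 cells of cluster 4. Of these, 56 (30.3%, exact 95% interval 23.7 to 37.4) kept a Top2a UMI, 36 (19.5%) an Mki67 UMI, and 14 (7.57%, 4.20 to 12.4) both. Before thinning, 125 cells (66.8%) held both. In the 2349 thinned cells outside clusters 4 and 14 the 3 shares were 2.34%, 1.06% and 0.170%, and in 6718 thinned mesothelial cells of the same library 1.27%, 0.238% and 0.0149%. Median depths before thinning were 36654, 23077 and 10582 UMIs. Cluster 4 held 14 of the 25 thinned CO epithelial cells with both transcripts (56%), and cluster 14 held 7. For Pcna, the sliding clamp of the replication fork, 3.78% of thinned cluster 4 cells held a UMI against 2.83% of mesothelial cells, a small difference at this depth. Its summed level was 19.8 CPM (16.7 to 23.3) in cluster 4. The highest Pcna level outside clusters 4 and 14 was 14.1 CPM, in cluster 12.

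The promoters of the marker genes and of a few genes from each end of the cycle are shown, because motifs for S phase and for mitotic factors are known from such promoters. The sequences are from RefSeq on GRCm38.p6, run 5′ to 3′ on the strand of the gene, and cover 250 bases before the start site and 30 bases after it. Capitals mark matches on either strand to the CHR letters TTTGAA and TTCGAA, to CCAAT, and to the E2F letters TTTCCCGC, TTTGGCGC and TTTCGCGC, and adjoining capitals can be overlapping matches. Top2a (chr11:99024160-99024439, minus strand), Mki67 (chr7:135716350-135716629, minus strand) and Cdc20 (chr4:118437314-118437593, minus strand) belong to the mitotic side, and Mcm5 (chr8:75109259-75109538, plus strand) and Mcm6 (chr1:128359676-128359955, minus strand) to the replication side.
Top2a: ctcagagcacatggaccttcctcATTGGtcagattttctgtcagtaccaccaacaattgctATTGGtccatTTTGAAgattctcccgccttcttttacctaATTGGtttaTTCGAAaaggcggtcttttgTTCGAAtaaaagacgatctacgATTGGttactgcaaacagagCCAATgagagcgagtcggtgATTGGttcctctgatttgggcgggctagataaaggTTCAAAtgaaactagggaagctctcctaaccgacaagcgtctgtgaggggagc
Mki67: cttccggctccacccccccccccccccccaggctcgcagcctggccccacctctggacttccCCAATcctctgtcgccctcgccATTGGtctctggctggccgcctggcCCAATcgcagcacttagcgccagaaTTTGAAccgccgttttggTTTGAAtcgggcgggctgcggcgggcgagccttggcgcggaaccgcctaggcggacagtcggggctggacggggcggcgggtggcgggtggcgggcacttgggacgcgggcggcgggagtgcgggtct
Cdc20: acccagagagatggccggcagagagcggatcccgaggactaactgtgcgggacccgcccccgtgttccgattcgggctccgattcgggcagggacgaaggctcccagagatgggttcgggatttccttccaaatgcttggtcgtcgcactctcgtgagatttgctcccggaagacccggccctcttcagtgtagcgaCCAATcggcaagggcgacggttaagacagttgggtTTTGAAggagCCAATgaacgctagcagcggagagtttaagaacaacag
Mcm5: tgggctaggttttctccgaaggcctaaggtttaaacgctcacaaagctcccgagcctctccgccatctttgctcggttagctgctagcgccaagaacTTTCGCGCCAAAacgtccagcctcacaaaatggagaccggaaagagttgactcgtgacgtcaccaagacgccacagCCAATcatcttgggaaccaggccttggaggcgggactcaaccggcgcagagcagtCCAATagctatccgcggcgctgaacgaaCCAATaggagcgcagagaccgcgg
Mcm6: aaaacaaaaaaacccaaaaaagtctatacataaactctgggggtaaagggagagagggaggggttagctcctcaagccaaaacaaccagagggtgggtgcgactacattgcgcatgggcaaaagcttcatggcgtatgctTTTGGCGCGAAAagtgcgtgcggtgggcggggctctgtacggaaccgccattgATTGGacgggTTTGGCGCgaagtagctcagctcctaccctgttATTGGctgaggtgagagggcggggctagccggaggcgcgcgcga

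Over 32851 windows of this length, 18.4% held a CHR match, 36.1% a CCAAT match and 1.73% an E2F match. Among kinesin, spindle and cytokinesis genes (28 of 31 with an entry, 30 windows), 76.7% held a CHR match and 6.67% an E2F match. Among licensing and replication fork genes (29 of 38 with an entry, 34 windows), 20.6% held a CHR match and 32.4% an E2F match. CCAAT was matched in 66.7% and 58.8%. Of the 15 genes with the largest ratios of cluster 4 to the other clusters among genes at 50 CPM or more in either group, 12 had entries (14 windows), of which 71.4% held a CHR match, 85.7% a CCAAT match and 0% an E2F match. Ccna2, Tpx2 and Pbk had no entry. These matches are descriptions of the letters in the windows.

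Among the 3000 genes at 50 CPM or more in cluster 4 or in the other clusters, 83 (2.77%) were higher in cluster 4 and 24 (0.8%) lower. Of the 83, 52 belonged to 10 lists of cell cycle genes by role. With the S and G2/M gene lists used below added, 56 belonged to a list, 1 was a histone gene and 26 were neither, and none of the 24 lower genes was on any of these lists. At this minimum level all of the 15 largest ratios belonged to genes known from S phase, G2 or mitosis. Ccna2, the cyclin of S phase and G2 (chr3:36564865-36572150, minus strand), was 27.8-fold higher, at 112 CPM (105 to 120) against 4.04. Tpx2, which targets the kinase Aurora A to the spindle, was 23.0-fold higher at 114 CPM, and Cdc20, an activator of the anaphase-promoting complex, 21.5-fold at 115 CPM. The rest were Ccnb1, Cenpe, Nusap1, Hmmr, Ncapg, Birc5, Pbk, Ect2, Cenpf, Prc1, Racgap1 and Top2a, at 14.7-fold to 23.5-fold.

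For counts over lists, members with at least 100 UMIs over all clustered cells were used. On that basis 390 of 11633 genes (3.35%) were higher in cluster 4 than in the other clusters and 377 (3.24%) lower, with a median ratio of 1.02. The 10 cell cycle lists held 232 genes, of which 218 reached 100 UMIs, and of these 166 were higher, 2 lower and 50 in between, with a median ratio of 4.54. Their summed level was 15430 CPM in cluster 4 against 5284 CPM in the other clusters and 19970 CPM in cluster 14.

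The genes of origin licensing and the replication fork were higher in 31 of 37 measured members, with a median ratio of 2.79. The helicase subunit Mcm5 stood at 34.2 CPM against 5.82 in the other clusters (5.89-fold), and Mcm6 at 42.1 CPM against 17.2 (2.45-fold). Mcm10, which helps start the helicase, was 12.8-fold higher, at 12.7 CPM against 0.995. Lig1, the ligase that seals new DNA, was 5.34-fold higher, at 56.7 CPM against 10.6. Of the genes of nucleotide supply, 6 of 12 were higher. The thymidine kinase Tk1 stood at 45.2 CPM against 3.5 (12.9-fold), and the ribonucleotide reductase subunits Rrm1 at 109 CPM against 18.0 and Rrm2 at 42.4 CPM against 6.01. In the DNA damage and repair list 17 of 19 were higher, with a median ratio of 3.83.

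Of the cyclins, CDKs and their activators 10 of 17 were higher and 1 lower. Cdk1, the mitotic CDK, was 14.5-fold higher, at 115 CPM against 7.89 and 263 CPM in cluster 14. Its partners Ccnb1 and Ccnb2 stood at 81.2 CPM and 105 CPM, against 3.46 and 8.41. The G1 cyclins did not share this pattern: Ccnd1 stood at 109 CPM against 176 in the other clusters, Ccnd2 at 20.1 CPM against 42.3 (ratio 0.474, called lower), and Ccnd3 at 51.1 CPM against 44.3. Against the luminal clusters alone, described below, 0 genes of this list were lower. Of the CDK inhibitors and pocket proteins 4 of 14 were higher and 1 lower. Cdkn3, a phosphatase that acts on CDKs, was 16.5-fold higher at 48.2 CPM, and Cdkn2a was lower, at 11.1 CPM against 30.3. The p53-induced inhibitor Cdkn1a stood at 65.7 CPM against 79.3, and none of the 12 p53 targets measured was higher or lower.

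Among the cell cycle transcription factors 4 of 15 were higher. Foxm1 stood at 8.03 CPM against 1.04 in the other clusters (7.74-fold), and E2f8, a repressor of E2F targets, at 15.2 CPM against 1.61 (9.46-fold). The growth factor-induced Myc stood at 13.9 CPM against 20.2 and at 73.8 CPM in cluster 14, and its relative Mycn at 38.7 CPM against 40.6.

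Mitotic genes gave the largest ratios. The kinesin, spindle and cytokinesis list was higher in 27 of 29 measured members with a median ratio of 13.4, the mitotic kinase, checkpoint and anaphase-promoting complex list in 20 of 21 with a median of 14.1, and the kinetochore and centromere list in 24 of 25 with a median of 8.91. Plk1, a kinase of mitotic entry and exit, stood at 45.6 CPM against 1.91 (23.9-fold). Aspm, a spindle pole protein, stood at 40.8 CPM against 1.53 (26.7-fold), and the checkpoint kinase Bub1b at 40.9 CPM against 1.51 (27-fold). Cenpf, a kinetochore protein, stood at 127 CPM against 7.16, and Birc5, the chromosomal passenger survivin, at 190 CPM against 9.87. Of condensins and chromatin proteins 23 of 29 were higher, with a median ratio of 3.91. They included the histone variant gene H2afz, at 2085 CPM against 632, and Hmgb2, at 726 CPM against 106. Of the replication-dependent histone genes Hist1h2ap stood at 136 CPM against 12.5 and Hist1h2ae at 45.9 CPM against 6.0. Histone genes are near-identical copies and most of their transcripts lack a poly(A) tail, so their values in a library primed on poly(A) are uncertain.

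**Figure D2:**
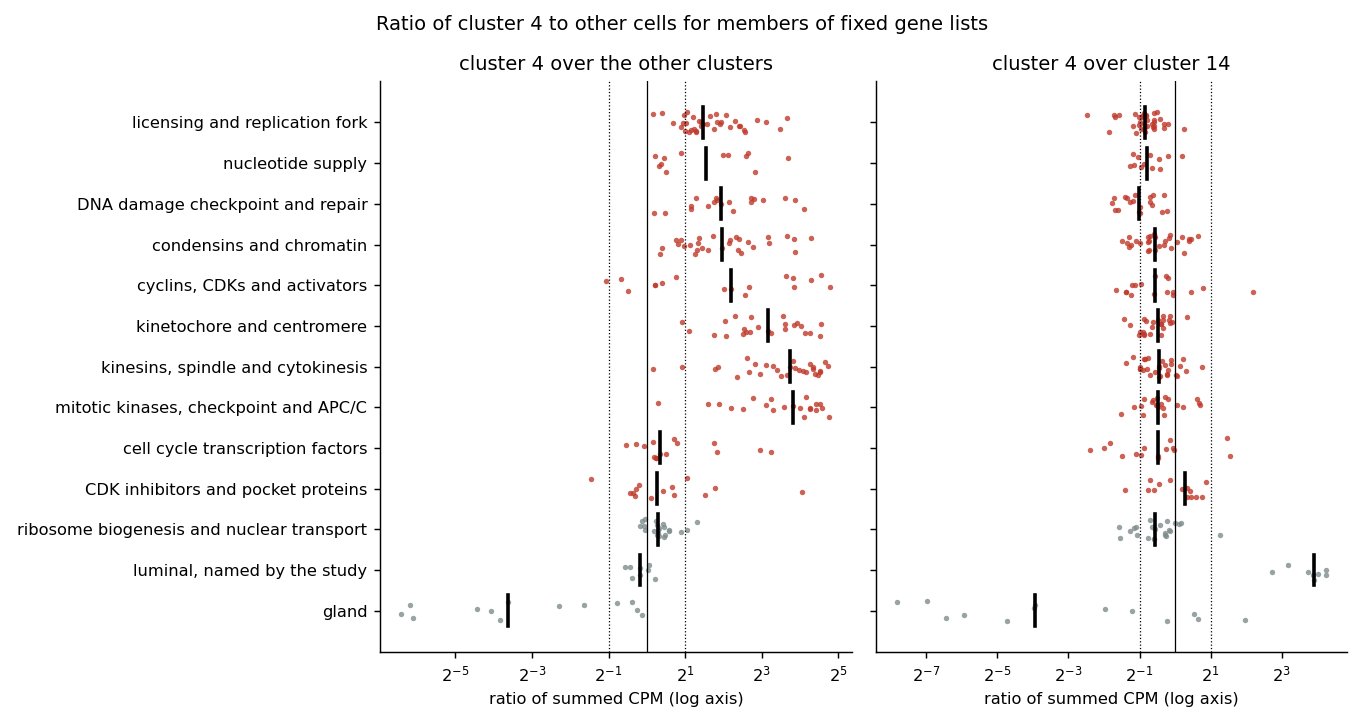
Ratio of summed CPM (log axis) of cluster 4 to the other clusters (left) and to cluster 14 (right) for list members with at least 100 UMIs; each point is a gene, black bars are list medians, and dotted lines mark ratios of 0.5 and 2. Against the other clusters the mitotic lists lie farthest to the right, with medians of 8.91 to 14.1, and the gland list lies to the left, whereas against cluster 14 the cell cycle lists lie near or below 1 and the luminal list at a median of 14.9. The study chose the luminal genes with cluster 4 on the high side and cluster 14 on the low side.

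Outside the 10 lists and the histones, 10 genes at 50 CPM or more had the largest ratios, of which Cdca3 and Lbr are on the G2/M list. Cdca3, a trigger of mitotic entry, was 11.8-fold higher (85.8 against 7.28 CPM), and Pclaf, a partner of the sliding clamp, 11.6-fold (378 against 32.5 CPM). Dbf4, the activator of the kinase that fires origins, was 5.07-fold higher. Ccdc34, Lsm3, Dek, Tubb5, Dnajc9, Lbr and Arl6ip1 were 2.74-fold to 3.90-fold higher. Of 23 genes of ribosome biogenesis and nuclear transport 2 were higher. The list's median ratio was 1.23, and Ran, the GTPase of nuclear transport and spindle assembly, stood at 812 CPM against 391. Among immediate early genes, which tissue dissociation is known to induce, 1 of 14 (Atf3, 72.1 against 175 CPM) was lower and none higher, with a median ratio of 0.724. Against the luminal clusters 0 of the 14 were lower, and Atf3 stood there at 119 CPM (ratio 0.607).

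Most members stood above the limit set for G2 and mitosis genes. Each thinned cell was given the sums of 43 S genes and of 54 G2/M genes per 10000 UMIs, and the limits were the 95th percentiles of the 2349 cells outside clusters 4 and 14, at 13.3 and 23.3. In cluster 4, 150 of 185 cells (81.1%, 74.7 to 86.4) were above the G2/M limit and 60 (32.4%, 25.8 to 39.7) above the S limit. These shares depend on the setting: without thinning they were 93.6% and 58.3%, and with the 99th percentile as the limit 65.4% and 22.2%. The thinned cells divided into 100 cells above G2/M alone, 50 above both, 10 above S alone and 25 above neither. The G2/M sum ranged from 3.33 to 180 per 10000 UMIs with a median of 53.3, and the S sum from 0 to 73.3 with a median of 10.0. Of the 72 clustered cells above both limits 50 (69.4%) were in cluster 4 and 18 (25%) in cluster 14. Among the 142 members with at least 20000 UMIs before thinning, 83.1% were above the G2/M limit and 35.2% above the S limit, and among the 43 shallower members 74.4% and 23.3%. The cells were clustered on these genes, and the positions are a description.

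Genes that were not in the S and G2/M sums differed along these positions. The helicase subunit Mcm3 stood at 53.6 CPM in the 10 cells above the S limit alone, 66.9 in the 50 above both, 20.3 in the 100 above G2/M alone and 12.0 in the 25 above neither. Tk1 peaked in the cells above both limits, at 94.8 CPM, against 31.3, 32.4 and 20.8 in the other positions. Plk1 stood at 13.4, 58.2, 51.7 and 7.65 CPM in the same order. The histone gene Hist1h2ap, at 355 CPM, was highest in the cells above both limits, and Ccne1, the cyclin of S phase entry, stood at 24.6, 19.2, 3.19 and 5.46 CPM. Ccnb1 was at 13.4 CPM above S alone, 88.4 above both, 99.8 above G2/M alone and 12.0 above neither. The estrogen receptor gene Esr1 varied less, at 237, 202, 213 and 201 CPM. Median depths of the 4 positions were 41930, 32640, 41310 and 28750 UMIs, and their part in the order was not tested.

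**Figure D3:**
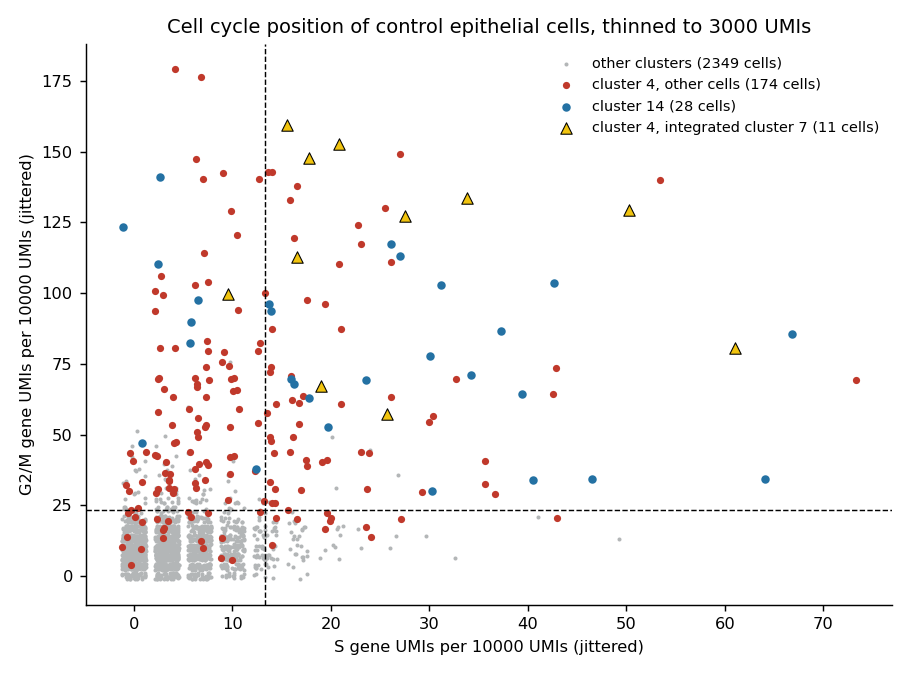
Summed G2/M gene UMIs against summed S gene UMIs, both per 10000 UMIs after thinning to 3000 UMIs and jittered, for single CO epithelial cells; dashed lines are the 95th percentiles of the cells outside clusters 4 and 14. Most cluster 4 cells (red) lie above the horizontal line, at a median of 53.3, and the 11 cells of integrated cluster 7 (yellow triangles) lie toward the upper right.

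Against the 1908 cells of luminal clusters 0, 1, 2, 5, 6, 7, 9, 10 and 11, 91 of 2984 genes (3.05%) at 50 CPM or more were higher in cluster 4 and 0 (0%) lower. Of the 91, 58 were on the 10 lists or the S and G2/M lists. Among the 11633 genes with at least 100 UMIs over all clustered cells, 481 (4.13%) were higher than in the luminal clusters and 139 (1.19%) lower, at a median ratio of 1.03. The 7 stem cell genes used here were Aldh1a1, Lgr5, Axin2, Gstm7, En2, Marcksl1 and Ptn. They are an incomplete list of genes the study linked to stem cells. Of these it gave Gstm7 and Marcksl1 for the path from cluster 12 to cluster 14 and Ptn for the path from cluster 12 to cluster 4. Ptn was thus chosen with cluster 4 on the high side. Of the 7, 6 were higher than in the luminal clusters, with a median ratio of 2.22, the 11 members in integrated cluster 7 included. Wnt7a, which the study also named, stood at 6.02 CPM against 7.97 CPM in the luminal clusters. In the other 176 members 0 of the 7 reached a ratio of 2. Ptn stood there at 120 CPM against 65.8 CPM in the luminal clusters, Gstm7 at 14 against 8.27 CPM, Marcksl1 at 19.5 against 16.1 CPM and Axin2 at 1.68 against 1.26 CPM. Aldh1a1 stood at 3.92 against 3.85 CPM, En2 at 0.981 against 1.25 CPM and Lgr5 at 0.140 CPM (1 UMI) against 0.164 CPM. The lowest ratios at 50 CPM or more were those of Mxd1, an antagonist of Myc (33.6 against 63.2 CPM), and of the chemokine gene Cxcl2 (41.1 CPM), at 0.531 and 0.537, above the level of 0.5 that a call needs. All 8 genes that the study named as luminal lay between the fold limits, with a median ratio to the luminal clusters of 0.771. They included Itgam, an integrin subunit, at 87.9 CPM against 116 CPM in the luminal clusters, and Cyp21a1, a steroid hydroxylase, at 83.5 CPM against 107. The study chose those genes on these cells, so their levels are not independent evidence. Over single cells the luminal sum had a median of 612 CPM in cluster 4, 809 in the luminal clusters and 31.2 in cluster 14.

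The 15 smallest ratios to the other clusters among genes at 50 CPM or more in either group belonged to 8 genes of the gland list and 7 others. The serine protease inhibitor gene Spink1 stood at 2.81 CPM in cluster 4 against 239 CPM, and the protease genes Prss28 and Prss29 at 2.81 and 9.63 CPM against 204 and 664. The calcium-binding S100g stood at 56.5 CPM against 953, and the proline-rich secreted Prap1 at 1555 CPM against 7653. Prss28 and Prss29 are close paralogs, as are Sprr2 and Klk genes, and reads may be divided between copies. Of 13 measured gland genes 9 were lower than in the other clusters (median ratio 0.0812), but 3 were lower than in the luminal clusters (median 0.750), beside 1.19% of all genes. Hsd11b1, which regenerates active glucocorticoids, and Ldhb, a lactate dehydrogenase subunit, were at 2.54 and 11.1 CPM against 61.0 and 57.2 in the other clusters, yet at 2.53 and 7.87 CPM in the luminal clusters.

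Few genes of the hormone response list were called, as among all genes. Esr1 stood at 210 CPM against 229 in the other clusters and 201 in cluster 14, and the progesterone receptor gene Pgr at 64.9 CPM against 77.0 and 26.4. The estrogen-induced lactoferrin gene Ltf stood at 2147 CPM against 2346 in the other clusters, and Greb1, an estrogen receptor cofactor, at 66.5 CPM against 59.5. Of 16 genes in this list 1 was lower, Areg, an EGF receptor ligand, at 2.14 CPM against 4.51, and none was higher. Over all genes 3.24% were lower and 3.35% higher, and the ratios of the list ran from 0.474 to 1.825. Of 19 Wnt pathway genes measured 1 was lower and none higher, and of 14 growth factor ligands and receptors 3 were lower, among them the FGF receptor gene Fgfr2 at 3.61 CPM against 8.82 in the other clusters and 3.09 in the luminal clusters. Against the luminal clusters 0 of the 19 and 1 of the 14 were lower, beside 1.19% of all genes.

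Cluster 4 and the cycling gland cluster 14 differed in lineage genes and, less, in cycle genes. Of 3373 genes at 50 CPM or more in either cluster, 530 (15.7%) were higher in cluster 4 and 386 (11.4%) lower. Of the 530, 1 was on the 10 lists or the S and G2/M lists, and of the 386, 20 were. On the basis of 100 UMIs, 1677 of 11633 genes (14.4%) were higher in cluster 4 than in cluster 14 and 1779 (15.3%) lower. This basis sets a minimum over all clustered cells but not within cluster 14, where many such genes have few UMIs. A gene without a UMI in cluster 14 was put at 3 UMIs there. With few UMIs in cluster 4 it can thus be called lower. Counting error therefore enters both shares and the list counts set beside them, and its part was not tested. Of the 218 cell cycle genes 3 were higher and 50 lower, with a median ratio of 0.653 beside 1.01 over all genes. The genes lower in cluster 4 leaned to the S phase lists: 17 of 40 S genes were lower (median ratio 0.520), and 3 of 53 G2/M genes (median 0.824). Cdt1, which loads the helicase, stood at 9.37 CPM in cluster 4 and 51.8 CPM in cluster 14. Exo1, a DNA repair exonuclease, stood at 4.42 and 27.6 CPM, and Brca1, a recombination factor, at 11.2 and 38.6 CPM. Pcna stood at 19.8 and 45.2 CPM. These are values of 187 and 28 cells of 1 library, with 7475013 and 907468 UMIs.

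Cells of cluster 14 also lay farther along the S axis. Of its 28 cells, 18 (64.3%) were above the S limit and 28 above the G2/M limit, with medians of 21.7 and 80.0 per 10000 UMIs. The lineage genes were far apart. All 8 luminal genes were higher in cluster 4, with a median ratio of 14.9. The study chose these genes as frequent in its LE clusters, with cluster 4 among them, and rare in its GE clusters, with cluster 14 among them. Their direction was therefore set by the choice. Lactoferrin (Ltf) stood at 2147 CPM in cluster 4 and 136 CPM in cluster 14, Greb1 at 66.5 and 4.41 CPM, and Wnt4, a Wnt ligand of the female tract, at 42.9 and 4.41 CPM. Over single cells the gland sum had a median of 1262 CPM in cluster 4 and 43320 CPM in cluster 14. The study placed cluster 14 in GE on genes of this list, such as Sult1d1, Klk1 and Napsa, so this is not independent evidence.

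Among genes at 50 CPM or more in either cluster, with a cluster at 0 UMIs put at 3 UMIs, the largest ratios of cluster 4 to cluster 14 belonged to Tmprss11d, a membrane serine protease, with 84.4 CPM against 1 UMI (ratio 76.6, 95% counting interval 13.7 to 3030), and to Tnip3 and Slc16a14, each with 63.8 CPM against 1 UMI (57.9, 10.3 to 2292). The pyrophosphate transport gene Ank stood at 162 against 4.41 CPM (36.7-fold), Sprr2a3, of the cornified envelope family, at 968 against 28.7 CPM (33.8-fold), and Cp, the copper carrier ceruloplasmin, at 252 against 11 CPM (22.9-fold). Mfsd4, Slc39a2 and Serpina9 were 28.1-fold to 30.2-fold higher, and the transcription factor gene Foxc1 stood at 60.3 CPM against 2 UMIs (27.4, 7.54 to 227). With the floor of 3 UMIs, genes at 0 UMIs in cluster 14 can rank below genes at 1 UMI. Ppp1r1b, at 50.3 CPM in cluster 4 and 0 UMIs in cluster 14, thus ranked outside the 10 largest. At the other end, the carbonic anhydrase gene Car4 stood at 2 UMIs in cluster 4 and 348 CPM in cluster 14, Cyp26a1, a retinoic acid hydroxylase, at 0.535 and 190 CPM, and Igfbp3, an IGF binding protein, at 1.74 and 268 CPM. Klk1, Abcb1b, Nmb, Efhd1, Pinlyp, Rnase1 and Atp6v0d2 completed the 10 lowest.

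The authors' joint clustering of CO and DES epithelial cells divided cluster 4. It placed 136 cells (72.7%) in integrated cluster 15, 34 (18.2%) in integrated cluster 0, 11 (5.88%) in integrated cluster 7, and 3 each in integrated clusters 1 and 14. Integrated cluster 15 held 148 cells with counts, all CO, so cluster 4 cells made up most of it. The 34 cells in integrated cluster 0 were the least cycling of these 3 groups: Top2a stood at 25.8 CPM, Mki67 at 24.8 CPM, and 19 of them were above neither limit. Their median depth was 20280 UMIs, against 38750 for the 136 cells in integrated cluster 15, where Top2a stood at 234 CPM and 92.5% of cells were above the G2/M limit.

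The 11 cells in integrated cluster 7 were the most strongly cycling and carried genes of CO cluster 12, a small cluster outside the luminal and gland groups with high levels of uterine stem cell markers. Integrated cluster 7 held 419 cells, 12 of them CO and 407 DES. Of the DES cells 184 were from DES cluster 6 and 160 from DES cluster 4, both described below. Of the 71 cells of CO cluster 12, 1 was placed there. In the 11 cells Top2a stood at 738 CPM (649 to 836) and Mki67 at 176 CPM, all 11 were above the G2/M limit and 10 above the S limit. Their median depth was 30930 UMIs, below the 36456 of cluster 4 as a whole and above the 20061 of cluster 12. None was marked by Scrublet. The authors' own removal of doublets with scran came before the clustering, and no further check for doublets was made. The Wnt target and stem cell receptor gene Lgr5 had 23 UMIs over the 11 cells, found in every one of them (68.5 CPM), and 1 UMI in the other 176 cells of cluster 4 (ratio 489, 95% counting interval 79.3 to 20130). It stood at 39.6 CPM in cluster 12 and 0.164 CPM in the luminal clusters. The Wnt target Axin2 stood at 26.8 CPM in the 11 cells, 1.68 in the other members and 22.1 in cluster 12.

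Other genes were also closer to cluster 12 than to the other members, some above it and some below. The retinaldehyde dehydrogenase gene Aldh1a1 stood at 104 CPM in the 11 cells, 3.92 in the other members, 83.2 in cluster 12 and 3.85 in the luminal clusters, and was found in 9 of 11 cells against 25 of 176. Gstm7, a glutathione transferase whose family shares sequence, stood at 786, 14, 1121 and 8.27 CPM, and the homeobox gene En2 at 74.4, 0.981, 47.0 and 1.25 CPM. Msx1, a homeobox gene of the uterine epithelium, stood at 586 CPM against 71.6 in the other members, and Plat, tissue plasminogen activator, at 441 CPM against 4.90 (89.8-fold, 61.8 to 134). Of 2644 genes at 50 CPM or more, 196 (7.41%) were higher in the 11 cells than in the other members and 262 (9.91%) lower. Lower ones included the luminal genes Itgam (14.9 against 91.3 CPM) and Pla2g2e (20.8 against 86.2 CPM), the alkaline phosphatase gene Alpl (20.8 against 324 CPM) and Ltf (848 against 2208 CPM). Epcam was similar, at 1170 against 1251 CPM. The study named cluster 4 luminal progenitor cells and described it as almost without Aldh1a1. By protein staining of adjacent sections it saw no overlap of ALDH1A1 and TOP2A. Protein in tissue is a different measure from the RNA of these 11 cells.

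Per cell, the sum of the 7 stem cell genes ranged from 756 to 3720 CPM in the 11 cells with a median of 1485. In the other 176 members its median was 151 CPM, with a highest value of 1965, and in cluster 12 the median was 1804. The study took Aldh1a1, Lgr5 and Axin2 from earlier reports and used them to name cluster 12. It chose Gstm7, En2, Marcksl1 and Ptn with these cells known. The clusterings used the genes of these same cells, so the order is a description. In the 407 DES cells of integrated cluster 7, Lgr5 stood at 6.56 CPM, Aldh1a1 at 3.54 CPM and Ptn, a heparin-binding growth factor, at 553 CPM, against 667 CPM for Ptn in the 11 cells. Marcksl1, an actin-binding protein gene, stood at 98.2 CPM in the 11 cells and 150 CPM in those DES cells. Leaving the 11 cells out of cluster 4 changed neither the direction nor the call of the cell cycle lists as a whole: between 162 and 169 of the 218 genes were higher in cluster 4 than in the other clusters under every alternative tried, beside the 166 given above.

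**Figure D4:**
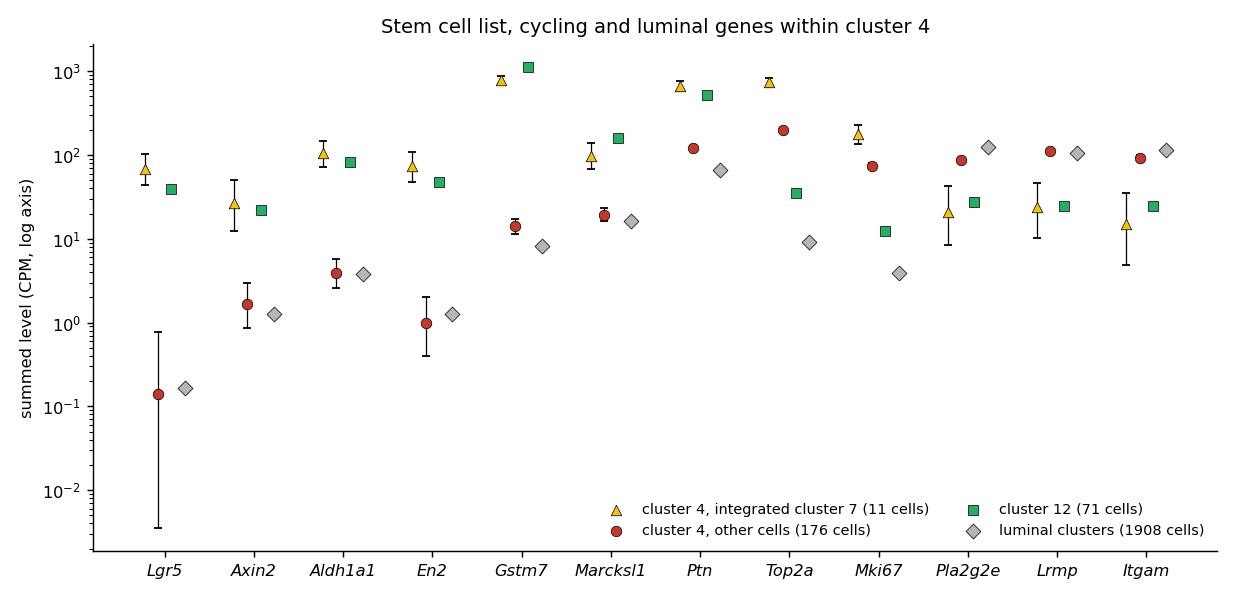
Summed level (CPM, log axis) of the 7 stem cell genes, Top2a, Mki67 and 3 luminal genes in the 11 cluster 4 cells placed in integrated cluster 7, the other 176 cells of cluster 4, CO cluster 12 and the luminal clusters; error bars are exact Poisson 95% intervals and are drawn for both parts of cluster 4. The 11 cells lie nearer to cluster 12 than to the other members for Lgr5, at 68.5 CPM, and the other stem cell genes, and highest of the 4 groups for Top2a and Mki67.

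Markers of other cell types were low in cluster 4. The 9 immune markers summed to 35.6 CPM, within the 15.9 to 166 CPM of the other 14 clusters, with Cd3e at 0 UMIs. The 9 stromal markers summed to 318 CPM (287 to 768 elsewhere), the 6 mesothelial markers to 43.9 CPM, the lowest of the 15 clusters, and the 5 endothelial markers to 9.90 CPM (2.66 to 14.7 elsewhere). Muscle and pericyte markers summed to 12.3 CPM, basal markers to 2.14 CPM with Trp63 at 0 UMIs, and ciliated markers to 3.34 CPM with Ccdc153 and Tekt1 at 0. In cluster 14 the immune sum was 98.1 CPM and the stromal sum 768 CPM, and their part in the contrast with cluster 14 was not tested. In the 11 cells of integrated cluster 7 the immune sum was 62.5 CPM, against 35.2 CPM in the members of integrated cluster 15.

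Among DES epithelial clusters the highest Top2a level was 133 CPM, in DES cluster 6 (260 cells), where Mki67 stood at 42.2 CPM, both below the summed levels of CO cluster 4. At equal depth 31.9% (26.3 to 38.0) of its thinned cells held a Top2a UMI and 8.08% (5.07 to 12.1) held both transcripts, against 30.3% and 7.57% in CO cluster 4. For Mki67 the shares were 15.4% and 19.5%, and for Ccna2 13.8% and 21.6%. Its median depth before thinning was 65030 UMIs. Of its thinned cells, 56.2% were above the G2/M limit of the CO cells and 25.8% above the S limit, against 81.1% and 32.4% in CO cluster 4. In DES cluster 4, which shares its number with CO cluster 4 by the separate numbering of the clusterings and holds 492 cells, 55.1% were above the S limit and 26.4% above the G2/M limit, and Mcm5 stood at 49.9 CPM, against 34.2 CPM in CO cluster 4. These are 1 library against 1, and libraries, pools and conditions cannot be told apart.

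The Visium sections, from mice that did not enter the clustering, were used to ask whether cycle genes were concentrated in the epithelium. In each section the top 15% of spots by the sum of 8 epithelial genes were called epithelium-rich, 204 to 275 spots of 1357 to 1834. Summed UMIs of these and of the other spots were compared with edgeR's quasi-likelihood test over 13625 genes. Spots hold several cells, so fewer cells of a type and less RNA per cell cannot be told apart, and the classes were formed on the same counts, so that p-values are likely too small. In CO sections 3365 genes (24.7%) were higher in epithelium-rich spots and 3083 (22.6%) lower at a Benjamini-Hochberg adjusted p of 0.05. Of 203 cell cycle genes tested 32 were higher and 21 lower, a smaller share in each direction than over all genes, and their median log2 difference was -0.05, beside 0.08 over all genes. DESeq2 called 11 of them higher.

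For Top2a and Mki67 no difference was detectable at this depth, while Epcam, which formed the spot classes, was higher in epithelium-rich spots. Epcam stood at 780 and 336 CPM in epithelium-rich and other spots of CO section 1 and at 557 and 157 CPM in CO section 2. In DES sections it stood at 689 and 379 CPM and at 802 and 447 CPM. Of the other spots 49.3% and 31.8% in CO and 52.8% and 60.8% in DES sections held an Epcam UMI. The other spots thus hold epithelium too, and the contrast is only partial. Top2a stood at 18.1 CPM in epithelium-rich and 15.2 CPM in other spots of CO section 1, and at 4.40 and 7.71 CPM in CO section 2. The sections pointed in opposite directions, and the log2 difference was -0.03 (SE 0.29, edgeR adjusted p = 0.952). Mki67 stood at 21.2 and 18.9 CPM in CO section 1 and at 9.53 and 13.1 CPM in CO section 2 (log2 difference -0.03, SE 0.26, edgeR adjusted p = 0.947). Epithelium-rich spots of CO section 2 held 12 Top2a UMIs and 26 Mki67 UMIs, so depth limits both values. That section is also the one with the tissue fold, and the part of the fold in these values was not tested. Leaving that section out turned both log2 differences positive, to 0.32 and 0.23. In DES sections Top2a stood at 16.9 and 6.97 CPM in section 1 and at 7.41 and 5.48 CPM in section 2, higher in epithelium-rich spots of both, with a log2 difference of 0.88 (SE 0.36, edgeR adjusted p = 0.178). Mki67 ran in opposite directions there, at 12.1 and 8.31 CPM in section 1 and at 3.37 and 6.55 CPM in section 2. Ccna2 did so as well, at 7.86 and 4.42 CPM in section 1 (13 UMIs in epithelium-rich spots) and at 2.69 and 3.69 CPM in section 2 (4 UMIs). Ccnb1 stood at 7.25 and 2.81 CPM in section 1 (12 UMIs) and at 0.673 and 1.43 CPM in section 2 (1 UMI). Over all genes 276 (2.03%) were higher in epithelium-rich spots of DES sections.

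Mcm6 was among the cycle genes that passed the test in CO sections, at 42.7 CPM in epithelium-rich against 25.6 CPM in other spots of section 1 and 42.5 against 18.9 CPM in section 2 (log2 difference 1.00, SE 0.16, edgeR adjusted p = 0.000129). Mycn stood at 105 against 44.5 CPM and at 111 against 38.2 CPM (log2 1.44). Among the cycle genes that passed and were higher in epithelium-rich spots the inhibitor Cdkn2b had the largest difference, at 34.4 against 13.5 CPM and 26.4 against 8.31 CPM (log2 1.54). Chaf1b, Knstrn, Shmt1, Hmgb3, Mycl and Melk had log2 differences of 0.93 to 1.43. The condensin subunit gene Ncapg (log2 1.33) rested on section 2, with 361 UMIs in its epithelium-rich spots and 132 CPM, against 15 UMIs and 4.6 CPM in section 1. Of the 10 largest such rises 1 belonged to a gene of the 15 largest ratios of cluster 4, Ncapg. Larger differences lay in the other direction, among them Pola2, of the DNA polymerase alpha complex, at 8.90 against 56.3 CPM and 12.5 against 66.7 CPM (log2 -2.48), and the CDK inhibitor Cdkn1c at 3.99 against 15.8 CPM and 8.43 against 45.6 CPM (log2 -2.21). Markers of other cell types moved the same way: all 7 muscle and pericyte markers and all 9 stromal markers were lower there in CO sections, at median log2 differences of -5.98 and -1.91. The difference between spot classes itself differed between DES and CO sections for 12 of the 203 cycle genes (5.91%), beside 1545 of all genes (11.3%), and 8 of the 12 leaned toward epithelium-rich spots more in DES than in CO. That count was 3 with DESeq2. It also fell or rose when single sections were left out. Such fits leave 1 section in a condition, and the source of the change was not tested. The marker lists shifted between conditions too. The median log2 difference of the muscle and pericyte markers was -5.98 in CO and -2.33 in DES sections, and the difference was called for 5 of 7. For the stromal markers it was -1.91 and -1.21, called for 4 of 9, and for the epithelial genes 1.5 and 0.78, called for 7 of 11. Their part in the values of the cycle genes was not tested.

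**Figure D5:**
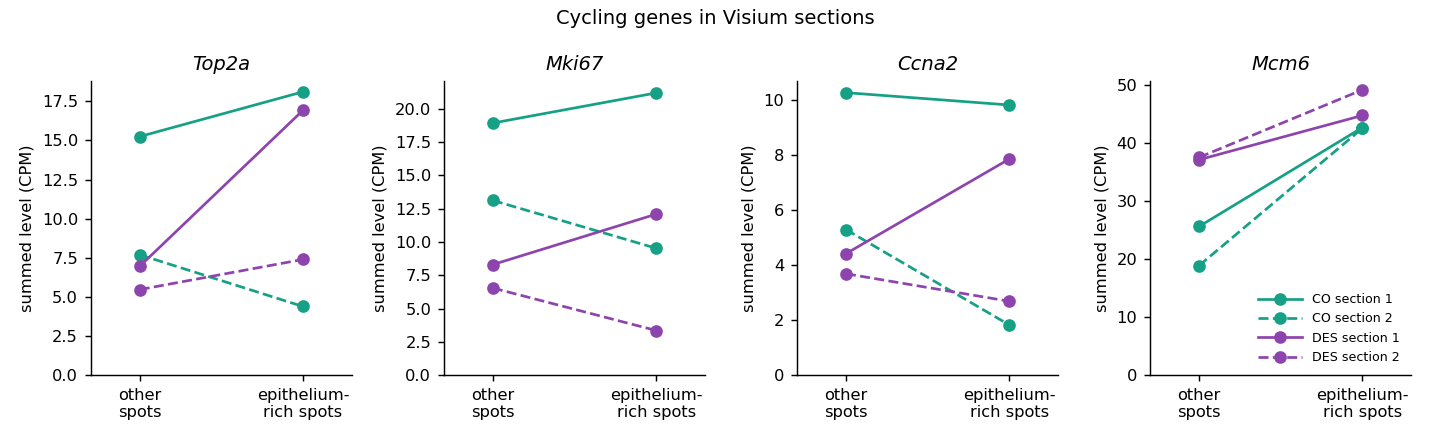
Summed level (CPM, axes from 0) of Top2a, Mki67, Ccna2 and Mcm6 in epithelium-rich and other spots, with 1 line per Visium section (CO green, DES purple; solid section 1, dashed section 2). Mcm6 is higher in the epithelium-rich spots of all 4 sections, while Top2a and Mki67 run up in CO section 1 and down in CO section 2, and Ccna2 runs down in both CO sections.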

How the data were processed

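The authors aligned and counted the Chromium 3′ v3 libraries with Cell Ranger 3.0.1 and the Visium sections with Space Ranger 1.2.2 on mm10 (bcl2fastq 2.20.0.422 for base calls), looked for swapped barcodes with DropletUtils, removed doublets with scran and clustered with Seurat. The deposited values used here are raw UMI counts per gene and cell or spot, with no normalization, and cluster numbers; no per-cell column was left unmapped (0). The luminal clusters are those the authors grouped as LE, with cluster 4 left out. Members and gene lists were chosen with earlier results of these data known.

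Levels are sums over cells in CPM (exact Poisson 95% limits), and for shares of cells the limits are Clopper-Pearson's (exact, 95%). A count of 0 was given a limit of 3 counts, and ratios with 1 to 3 UMIs on 1 side a conditional exact interval. Cells were thinned to 3000 UMIs with a fixed seed (20230). Doublets were looked for with Scrublet in scanpy 1.11.5 (expected rate 0.1, 30 components), and none was removed. Genes called higher or lower passed a ratio of 2, at 50 CPM or more in either group for counts over all genes and, for list members, at 100 UMIs or more over all clustered cells. Named genes were list members, the 15 largest and 15 smallest ratios to the other clusters, the 10 largest and 10 smallest ratios to cluster 14 (at least 30 UMIs in the higher one), the 10 largest outside the cycle lists and histones, and the 10 largest rises in epithelium-rich spots. The genes named in the 11 cells of integrated cluster 7 outside the lists (Plat, Alpl), the lowest ratios to the luminal clusters, and those cells themselves, were chosen after their values were seen. Windows of RefSeq promoters were cut to 30 bases after the start, and gene positions came from a GENCODE annotation of GRCm38.

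Spot sums of the 4 sections were fitted in edgeR 4.0.16 (R 4.3.3; TMM, filterByExpr, section and spot class within condition, quasi-likelihood F test) at an adjusted p of 0.05. All 4 sections shared 1 estimate of spread, because 2 CO sections alone leave 1 residual degree of freedom. On simulated counts of this comparison over 13334 genes, 51 of 52 genes raised 4-fold and 32 of 51 raised 2-fold were called, as were 33 of 50 lowered to 0.25 and 21 of 47 lowered to 0.5 of their level, and 4 unchanged genes. The simulation gave each gene 1 mean level for all sections and all genes the same dispersion. Differences between sections, such as that of Ncapg, were not part of it, so these numbers may overstate the test on the real counts. Depth per section was 9117099 to 12506177 UMIs. Alternatives were DESeq2 1.42.0, other filters, other shares of spots, each section left out, other minimum CPM, thinning to 5000 UMIs or none, limits at the 99th percentile, mean counts over cells, totals without the 20 most abundant genes, cells under 20% mitochondrial counts and, added after the data were seen, the members of integrated cluster 15 alone, without those of integrated cluster 7, without shared barcodes, and a minimum of 10000 UMIs. The values of 1 list member are not reported here.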

Additional observations from a re-analysis of the deposited data

Results flagged for a closer look

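For 12 of 203 cell cycle genes (5.91%, beside 11.3% of all genes) the difference between epithelium-rich and other Visium spots was not the same in DES and CO sections by edgeR's interaction term at an adjusted p of 0.05. The count was 3 with DESeq2, 3 without DES section 1, 1 without DES section 2 and 25 without CO section 1. On the log2 scale (DES minus CO) the replication genes Pola2 and Rpa1 differed by 2.42 and 1.12 and the nucleotide supply gene Ctps by 0.97. The tubulin genes Tuba1b and Tubb4b differed by 1.47 and 0.66, the CDK inhibitor gene Cdkn1c by 1.60, the kinase gene Cdk6 by 1.07 and the centromere gene Cenpt by 1.19. The other 4 leaned the opposite way: Shmt1 by -1.44, the phosphatase gene Cdc25a by -1.17, Cdkn2b by -1.09 and Hmgb3 by -0.93. Pola2 stood at 8.90 CPM in epithelium-rich and 56.3 CPM in other spots of CO section 1 and at 12.5 and 66.7 CPM in CO section 2, against 15.1 and 15.7 CPM in DES section 1 and 10.8 and 10.0 CPM in DES section 2. Tuba1b stood at 121 and 376 CPM in CO section 1 and at 69.3 and 301 CPM in CO section 2, against 403 and 488 CPM in DES section 1 and 316 and 376 CPM in DES section 2. The muscle and pericyte markers moved the same way as these 2 genes, from a median log2 difference of -5.98 in CO to -2.33 in DES sections. With 2 sections a condition, spots of mixed cells and classes formed on the same counts, the source of these differences was not tested.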

How the results depend on the processing

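No paired analysis was possible because the labels give CO and DES sections no shared number (spot classes were compared within each section): numbers here follow accession order, and CO and DES labels share 1 letter only. The counts of genes moved with the minimum level: higher than the other clusters, 192 at 20 CPM and 48 at 100 CPM; lower, 61 and 14, and 37 with mean counts over cells; higher than cluster 14, 929 and 287, and lower, 187 at 100 CPM. Against the luminal clusters alone 0 genes were lower at 50 CPM, and the log2 ratios of Hsd11b1 and Ldhb turned to 0.006 and 0.50. Depth sets the per-cell shares: cells with both Top2a and Mki67 were 14.7% at 5000 UMIs and 66.8% without thinning, cells above the S limit 41.9% and 58.3% (22.2% with the 99th percentile), and cells above the G2/M limit 93.6% without thinning (65.4% with the 99th percentile). In the sections DESeq2 called 11 cycle genes higher in epithelium-rich spots of CO, against 23 to 29 with 1 section left out. The count that differed between conditions was 3 with DESeq2, 20 without the filter, 4 with the top 10% of spots and 1 to 25 with 1 section left out. The log2 differences of Top2a and Mki67 between spots of CO sections ranged from -0.76 to 0.32 and from -0.42 to 0.23 with 1 section left out, and were positive without CO replicate 2. Over named genes, 415 values for single cells stayed on their side and 63 moved, and in the sections 100 stayed and 6 fell short of the threshold. The causes were not tested.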
